A study of Homo sapiens with 6 samples.

Results

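Small RNA counts of K562 cells, an erythroleukemia cell line, were examined for entries annotated as piRNAs. Such entries carry a name made of DQ and digits, and those with at least 10 counts summed over the 6 libraries were taken, which gave 101 of 23373 piRNA-annotated entries and of 28846 annotated small RNAs in all. The rule used the counts of both conditions, so the entries were selected on their summed counts and their abundance is a description and not a finding. Of the other piRNA-annotated entries, 563 had 1 to 9 summed counts and 22709 had none, and the 101 held 60827 of 61966 piRNA-annotated counts (98.2%). At the edge of the rule, 7 entries had a summed count of 9, among them DQ574619 and DQ590083, and 8 had a summed count of 10, among them DQ580637 and DQ599698.

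Cells were transduced with SIEW, a lentiviral vector that expresses GFP only (control), or with SIEW RUNX1, which expresses GFP and human RUNX1, a transcription factor of blood cell development. There were 3 samples per condition, from biological triplicates per the series text, and total RNA was taken after 10 days in culture. Transduction and GFP were thus common to both conditions, and K562 is a single cell line. The small RNA counts do not measure RUNX1 mRNA, so the labels were not checked on it. Library names carry the letter A for control and B for RUNX1 libraries. Should these letters stand for different preparations, the preparation could not be told apart from the condition.

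PIWI-interacting RNAs (piRNAs) are small RNAs that are bound by PIWI proteins and guide the silencing of transposons, mainly in the germline. Catalogues of piRNAs were built by sequencing small RNAs, and some of their sequences also lie within abundant structured RNAs. Among those, snoRNAs guide the chemical modification of other RNAs, snRNAs are parts of the spliceosome, and rRNAs such as 5S are parts of the ribosome. A count on a piRNA-annotated entry says that a read was assigned to that name. It does not show that the RNA was bound by a PIWI protein.

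The files gave a name and a count per entry, without position, length or sequence, so the piRNA-annotated sequences were not printed here. Sequences were shown for 2 snoRNAs that were the closest in count pattern to a piRNA-annotated entry by a margin over the next, on few counts, as described further on. They were read from GENCODE 29 on GRCh38, 5′ to 3′, whereas the submitters' processing notes name hg19. SNORD86 is a snoRNA gene at chr20:2656097-2656182 on the plus strand, within NOP56. SNORD11B is a snoRNA gene at chr2:202291332-202291421 on the plus strand, within NOP58. NOP56 and NOP58 encode core proteins of box C/D snoRNA particles.
SNORD86: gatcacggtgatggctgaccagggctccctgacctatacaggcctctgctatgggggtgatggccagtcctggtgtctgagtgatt
SNORD11B: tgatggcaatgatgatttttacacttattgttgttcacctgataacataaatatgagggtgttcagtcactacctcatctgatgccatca

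Control libraries held 1618248 to 6193319 counts, with replicate 1 the smallest, and RUNX1 libraries 7918551 to 15245007. The limit set by 3 counts ranged from 1.97e-05% to 1.85e-04% of a library, which covers counting error only. Replicates of a condition differed beyond sampling noise (chi-square per degree of freedom 9.62 to 451), and RUNX1 replicate 3 stood apart from RUNX1 replicates 1 and 2. All 4 erythroid microRNAs looked up were detected, summing to 5800 to 6230 CPM (counts scaled to a common library total) in control libraries and 1764 to 3199 in RUNX1 libraries. Of these, miR-144-3p alone had higher counts in all RUNX1 libraries, with 1559 to 2598 against 285 to 902 in the less deep control libraries. These counts were not scaled for depth, so they do not show that it rose. Of 4 microRNAs of other lineages, miR-124-3p of neurons had no count, miR-122-5p of liver and miR-133a-3p of muscle had at most 13 counts in a library, and the leukocyte miR-142-5p made up nearly all of the list's 14054 to 16273 CPM in control libraries and 26794 to 31788 in RUNX1 libraries. The 7 microRNAs of germline and embryonic stem cells summed to 19.7 to 22.1 CPM in control libraries and 2.7 to 3.41 CPM in RUNX1 libraries. Most of these counts were on miR-373-3p, with 31, 100 and 97 in control and 35, 16 and 22 in RUNX1 libraries. Each of the others had at most 18 counts in a library. The sum moved in the same direction as the piRNA-annotated share described next, and its part in that share was not tested.

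As a class, the 101 entries took a small share of the library that was lower in all 3 RUNX1 libraries. The share was 0.206%, 0.225% and 0.206% of all counts in control, and 0.0851%, 0.0848% and 0.135% in RUNX1 libraries. No RUNX1 sample reached the lowest control, and RUNX1 replicate 3 was the highest of its group. Means were 0.212% ± 0.011 and 0.102% ± 0.0291 (SD, n = 3 each), which differed by -0.111 percentage points (exact two-sided permutation test, p = 0.1, which is the lowest value that this design can reach). Without RUNX1 replicate 3 the difference was -0.127 points. In bulk RNA, fewer cells with an RNA and less of it per cell cannot be told apart. Shares of one library sum to a constant, and the microRNA share was 81.8% ± 0.396 in control libraries and 90.9% ± 1.23 in RUNX1 libraries. The shares of snoRNAs (11.6% and 6.65%), rRNAs (6.16% and 2.26%) and snRNAs (0.241% and 0.115%) were also lower in RUNX1 libraries. In each of these 3 classes RUNX1 replicate 3 was again the highest of its group.

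Set against structured RNAs within the same library, a quantity that needs no scaling between libraries, the piRNA-annotated class showed no separation of the conditions. Control libraries had 11.6, 12.2 and 11.6 piRNA-annotated counts per 1000 snoRNA, rRNA and snRNA counts, and RUNX1 libraries had 10.6, 9.81 and 13. The RUNX1 values spanned those of control, with a log2 difference of -0.0964 (exact permutation test, p = 0.5). Relative to snRNAs alone the ratio was the most even, with 883, 886 and 875 piRNA-annotated counts per 1000 snRNA counts in control libraries and 819, 910 and 910 in RUNX1 libraries. Here the log2 difference was -0.00492 (exact permutation test, p = 1), with an SD of 0.0558 over the 6 libraries. Other denominators gave other directions. Per 1000 rRNA counts the class had 34.5 ± 1.5 counts in control libraries and 45.3 ± 6.45 in RUNX1 libraries (SD, n = 3 each), higher in all RUNX1 libraries (exact permutation test, p = 0.1). Per 1000 snoRNA counts it had 18.4 ± 0.712 and 15.1 ± 2.87 counts, with overlap (exact permutation test, p = 0.3), and per 1000 microRNA counts 2.6 ± 0.148 and 1.12 ± 0.337 counts, without overlap (exact permutation test, p = 0.1). These are 5 ratios of the same counts and are not independent of each other, and with 3 samples against 3 no adjustment for their number could bring a p under 0.1.

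**Figure D1:**
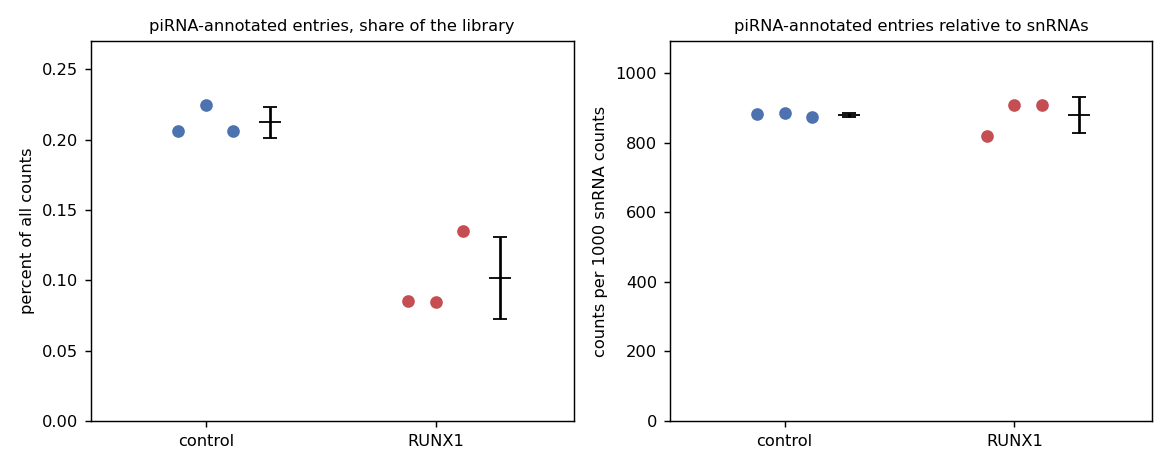
Share of the 101 piRNA-annotated entries in all counts (left, percent) and their counts per 1000 snRNA counts (right) in each control (blue) and RUNX1 (red) library. Black bars are the mean and SD of 3 libraries. The share was 0.206% to 0.225% in control libraries and 0.0848% to 0.135% in RUNX1 libraries, while the ratio to snRNAs overlapped between the conditions.

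Counts were concentrated in few entries. DQ590704 alone held 35% to 38.8% of the piRNA-annotated counts of a library, and 2 entries sufficed for 50% in every library. The 5 highest entries of a library held 81.4% to 83.6%. To reach 90% took 8, 9 and 8 entries in control libraries and 12, 11 and 11 in RUNX1 libraries. Over all libraries 8 entries had at least 1000 summed counts, 17 had 100 to below 1000, 44 had 20 to below 100 and 32 had 10 to below 20. The inverse Simpson number, which is the number of equally abundant entries that would give the same concentration, was 4.72 to 5.17 per library. It was 4.96 over all libraries, against 2.9 for rRNAs, 6.5 for snRNAs, 11.1 for microRNAs and 17.5 for snoRNAs with at least 10 summed counts.

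The number of entries seen was compared as deposited and at equal depth. Of the 101 entries, 70, 95 and 96 had a count in the control libraries and 101, 94 and 99 in the RUNX1 libraries, and 36 entries had no count in at least 1 library. Thinned to the smallest total of 1618248 counts, the expected numbers were 70, 74.3 and 71.8 in control libraries and 64.8, 62 and 73.3 in RUNX1 libraries. RUNX1 replicates 1 and 2 lay below all control libraries, and RUNX1 replicate 3 lay within the control range. Thinning was to a common total of all counts, so libraries with a smaller piRNA-annotated share kept fewer piRNA-annotated counts. These numbers are thus not independent of the class share. Among all piRNA-annotated entries, 107 to 243 were detected in control libraries and 247 to 335 in RUNX1 libraries, and at equal depth 107 to 123 and 95.4 to 117 were expected.

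For single entries, counts were scaled with TMM, a method that assumes that most small RNAs do not change, and tested with edgeR's quasi-likelihood test. A call required an unadjusted P below 0.05 together with a log2 fold change (RUNX1 over control) whose size was 0.5 or more. Of the 101 entries, 35 passed the filter on low counts, with 41 to 22732 summed counts, and 66 with 10 to 66 summed counts did not. Among the 35, 1 rose, 8 fell and 26 were not called, so 25.7% were called against 57.6% of all 947 small RNAs tested. By direction, the background was 28% rising and 29.6% falling. Among entries with at least 1000 summed counts, 62.6% of all small RNAs were called, and 3 of the 8 piRNA-annotated ones (DQ585095, DQ600515 and DQ590020). The CPM of the conditions did not overlap in 12 of the 35 entries (34.3%), against 64.8% of all tested, and 10 of these 12 were lower in RUNX1 libraries. The median log2 fold change of the 35 was -0.22, against -0.06 for all tested, -1.61 for snRNAs, -2.32 for rRNAs and -0.16 for snoRNAs. With P-values adjusted by Benjamini-Hochberg over all tested, 8 of the 35 were called, against 54.6% of all. Requiring in addition a log2 fold change of 1 in size left 5 of the 35, against 38.4% of all. These were DQ600515, DQ593190, DQ594916, DQ570422 and DQ586320, and apart from DQ600515 their selection leaned on control libraries, as given below. By library size only 19 of the 35 were called, each of them falling, against 67.7% of all. Without a count filter 23 of the 101 were called. The 24.7% called among all 3084 small RNAs then tested is no like measure, since that set includes entries with fewer than 10 summed counts. DQ594916, DQ570422 and DQ586320 passed the filter through control libraries only, so that a lower value in RUNX1 libraries was built into their selection. DQ593190, also called, reached the level of the filter in 3 control libraries and 1 RUNX1 library, so its selection leaned on control too.

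The most abundant entry, DQ590704, had 601, 655 and 651 CPM (TMM-scaled, as all CPM from here on) in control libraries and 413, 404 and 580 CPM in RUNX1 libraries. It was lower in all RUNX1 libraries, of which replicate 3 came close to control. Its log2 fold change of -0.45 (SE 0.162, adjusted P = 0.0386) was under the size required for a call. DQ592181 had 299, 319 and 281 CPM in control libraries and 238, 248 and 254 CPM in RUNX1 libraries. The conditions did not overlap, with a log2 fold change of -0.28 (SE 0.121, adjusted P = 0.0746), again too small for a call. DQ585095 had 228, 208 and 259 CPM in control libraries and 109, 124 and 221 CPM in RUNX1 libraries. RUNX1 replicate 3 lay within the control range, and the log2 fold change was -0.62 (SE 0.252, adjusted P = 0.0608). This call was lost without control replicate 1 or 3 and without RUNX1 replicate 1 or 2, with log2 fold changes of -0.60, -0.51, -0.41 and -0.46, and with TMM on structured RNAs (-0.28).

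DQ593109 had 102, 122 and 112 CPM in control libraries and 93.8, 104 and 128 CPM in RUNX1 libraries. The conditions overlapped, with a log2 fold change of -0.05 (SE 0.156, adjusted P = 0.82). DQ596830 had 104, 104 and 94.3 CPM in control libraries and 62, 62.4 and 93.3 CPM in RUNX1 libraries, with a log2 fold change of -0.48 (SE 0.181, adjusted P = 0.047). All RUNX1 libraries were lower, although replicate 3 nearly reached control replicate 3. DQ600515 showed the clearest fall among the abundant entries, from 56.9, 62.1 and 58.3 CPM in control to 15, 16.5 and 26 CPM in RUNX1 libraries. The conditions were far apart, with a log2 fold change of -1.64 (SE 0.212, adjusted P = 1.71e-04). Its share of the piRNA-annotated counts, a measure free of library scaling, was 3.55% ± 0.069 in control libraries and 1.47% ± 0.169 in RUNX1 libraries (SD, n = 3 each).

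DQ590020 had 27.7, 35.1 and 34.5 CPM in control libraries and 12.5, 13 and 27.6 CPM in RUNX1 libraries. RUNX1 replicate 3 was just under the lowest control, and the log2 fold change was -0.90 (SE 0.299, adjusted P = 0.027). The call was lost with TMM on structured RNAs (-0.56). DQ601914 had 21, 26.2 and 23.3 CPM in control libraries and 22.7, 24.8 and 27.3 CPM in RUNX1 libraries, and DQ585093 had 13.4, 20.7 and 14 CPM against 16.7, 16.8 and 21.6 CPM. Both overlapped between the conditions, with log2 fold changes of 0.07 (SE 0.158) and 0.16 (SE 0.217). DQ571425 had 12.9, 15.4 and 10.7 CPM in control libraries and 17, 18.1 and 18.4 CPM in RUNX1 libraries, without overlap, and its log2 fold change of 0.45 (SE 0.187, adjusted P = 0.0638) was too small for a call. DQ578832 had 7.65, 10.9 and 8.3 CPM in control libraries and 10.6, 13.1 and 15.2 CPM in RUNX1 libraries, with slight overlap and a log2 fold change of 0.49 (SE 0.222, adjusted P = 0.0855). DQ593751 had 6.7, 10.4 and 11.7 CPM in control libraries and 6.77, 6.24 and 8.61 CPM in RUNX1 libraries, which overlapped (log2 fold change -0.48, SE 0.243, adjusted P = 0.117).

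Among less abundant entries, the single rise was that of DQ582175. It had 5.26, 4.1 and 3.42 CPM in control libraries and 5.99, 5.76 and 6.86 CPM in RUNX1 libraries. The conditions did not overlap, with a log2 fold change of 0.61 (SE 0.236, adjusted P = 0.0493). The call was lost without control replicate 2 or 3 and with the replicate number as a block, at log2 fold changes of 0.61, 0.48 and 0.59. It was also lost with TMM on microRNAs (0.42) and by library size only (-0.09). DQ593190 fell from 14.8, 15 and 17.6 CPM in control to 1.39, 1.92 and 5.98 CPM in RUNX1 libraries. The conditions were far apart, with a log2 fold change of -2.42 (SE 0.449, adjusted P = 0.0014). As said above, its selection leaned on control libraries. DQ590030 had 5.26, 5.83 and 6.85 CPM in control libraries and 3.3, 4 and 3.79 CPM in RUNX1 libraries, without overlap (log2 fold change -0.74, SE 0.225, adjusted P = 0.0189). Its call was lost without control replicate 3 (-0.60), with DESeq2 (-0.65) and with TMM on structured RNAs (-0.39).

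The 3 entries that passed the filter through control only were DQ594916, DQ570422 and DQ586320. DQ594916 had 9, 44 and 40 counts in control libraries and 15, 7 and 5 counts in RUNX1 libraries, or 4.3, 5.46 and 5.27 CPM against 1.3, 1.12 and 0.73 CPM, with a log2 fold change of -2.23 (SE 0.294). DQ570422 had 3, 17 and 26 counts in control libraries and 2, 0 and 5 counts in RUNX1 libraries, or 1.43, 2.11 and 3.42 CPM against 0.173, 0 and 0.73 CPM, with a log2 fold change of -3.07 (SE 0.673). DQ586320 had 4, 13 and 9 counts in control libraries and 7, 5 and 3 counts in RUNX1 libraries, or 1.91, 1.61 and 1.19 CPM against 0.607, 0.8 and 0.438 CPM, with a log2 fold change of -1.25 (SE 0.409). In each the conditions did not overlap. The call of DQ586320, which rests on the fewest counts, was lost without control replicate 2 (-1.17) or RUNX1 replicate 3 (-1.01), with DESeq2 (-1.22) and with TMM on structured RNAs (-0.91). The 26 entries not called had log2 fold changes of -0.84 to 0.49, with SE from 0.121 to 0.665, which leaves room for changes above the size required for a call in the less abundant ones.

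The direction of the class depended on the scaling of the libraries. The 101 entries were therefore also fitted together, with every small RNA of at least 10 summed counts (1486 tested). On the TMM scale 12 rose and 8 fell (19.8% called, against 45.9% of all, 23.3% rising and 22.6% falling), and the median log2 fold change was 0.19 against 0.00 for all. With TMM on snoRNAs, rRNAs and snRNAs only, 31 rose and 4 fell (34.7% called, against 49.7% of all, 34.4% rising and 15.3% falling), with a median of 0.58 against 0.41. By library size alone, 2 rose and 28 fell (29.7% called, against 54.2% of all, 10% rising and 44.2% falling), with a median of -0.51 against -0.75. Relative to the median of all small RNAs, the class median was thus higher by 0.17 to 0.24 on these scales, whereas among the 35 entries of the first test it differed by -0.16 (-0.22 against -0.06). The summed count behind the rule leaned towards RUNX1 libraries, which held 31670316 counts in all against 13964488 in control, so entries of few counts were favoured when higher there. Of the 66 entries too low for the first test, 10 rose and 0 fell on the TMM scale, against 23.3% rising and 22.6% falling among all 1486. With TMM on structured RNAs 20 of them rose and 0 fell, against 34.4% and 15.3% of all. By library size alone 2 rose and 7 fell, against 10% and 44.2% of all. The 1486 include entries of many counts, so they are no like measure for these 66.

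The 4 entries that fell on all of these scales were DQ600515, DQ593190, DQ594916 and DQ570422. DQ590704, the most abundant, had log2 fold changes of -0.41, 0.00 and -1.13 on the TMM, structured RNA and library size scales, and was called on the last of these. DQ582175 had 0.66, 1.08 and -0.09, and was not called on the last. Of the entries too low for the first test, DQ592185 (66 summed counts), DQ582102 (64) and DQ579099 (57) were the most abundant. DQ588779 and DQ599906 were tied with the last at 57. They had log2 fold changes of 0.80 (SE 0.445) and 0.66 (SE 0.534) on the TMM scale and were not called there. DQ592185 had 0.931, 1.97 and 0.91 CPM in control libraries and 1.62, 1.8 and 1.73 CPM in RUNX1 libraries, with overlap. DQ582102 had 2, 8 and 8 counts in control libraries and 22, 13 and 11 in RUNX1 libraries, with a log2 fold change of 0.92 on the TMM scale (SE 0.398, adjusted P = 0.0792). DQ579099 had 1, 10 and 4 counts against 15, 12 and 15 (log2 fold change 1.10, SE 0.486, adjusted P = 0.0834). Both were without overlap in CPM. DQ580637 and DQ599698 had no count in control, and 6, 3 and 1 or 4, 0 and 6 counts in RUNX1 libraries. Each had 10 counts over the RUNX1 group. Set against a floor of 3 counts over the control group, these were 2.48-fold higher on the TMM scale and 1.47-fold higher by library size. Counting error of the 10 counts is not in these folds, so they are no lower limit. Both entries met the rule through RUNX1 libraries only, so a higher value there was built into their selection. With both set at these folds, the class medians were still 0.19 and -0.51.

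**Figure D2:**
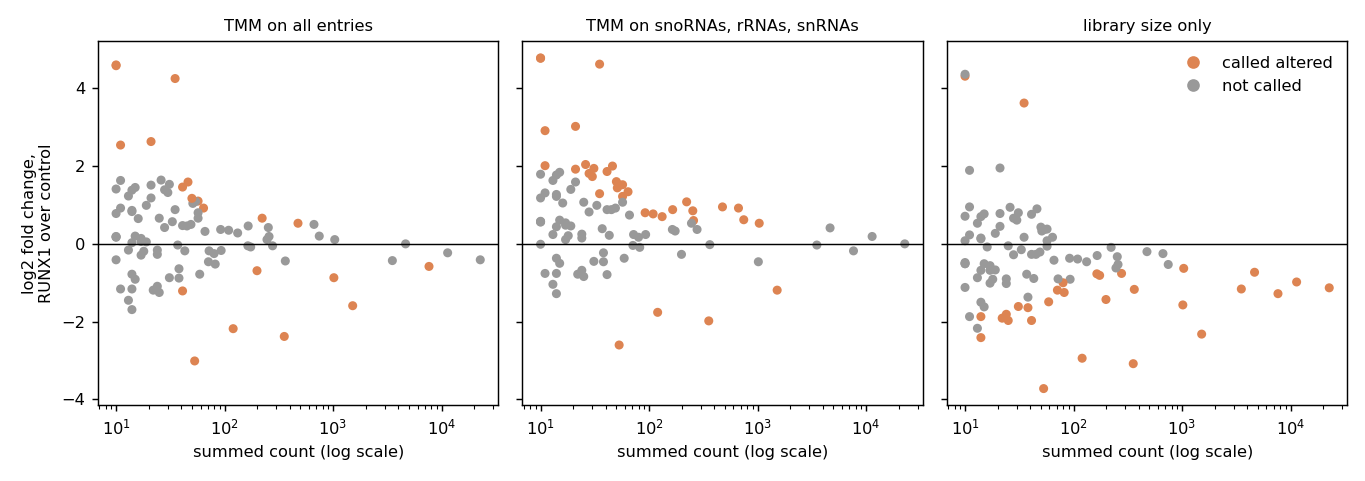
Log2 fold change (RUNX1 over control, vertical axis) of the 101 piRNA-annotated entries against summed count (horizontal axis, log scale) with TMM on all small RNAs, TMM on structured RNAs and library size only. Orange points were called and grey points were not, and the numbers rising and falling were 12 and 8, 31 and 4, and 2 and 28. The 2 entries at 10 counts near the top had no count in control, so their height is no measure of size.

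To describe which entries moved with a structured RNA, each of the 35 tested entries was set beside 314 snoRNA, rRNA and snRNA entries, and the one with the smallest SD of the log2 count ratio over the 6 libraries was taken. The choice used the values, so the SD is a description without a test. The smallest SD ranged from 0.0664 to 0.453 with a median of 0.179, and the closest entry was a snoRNA in 28, an snRNA in 4 and an rRNA in 3 cases. The 314 candidates were 230 snoRNAs, 34 snRNAs and 50 rRNAs, so snoRNAs made up most of the candidates too. For 30 of the 35 the SD was at or below that from counting alone. The choice among so many candidates makes it small, and many served nearly as well, since a median of 42 lay within 0.2 of the closest. The 588 tested microRNAs, set beside the same 314 entries, had a median SD of 0.15 and a middle range of 0.0993 to 0.232. The smallest SD of a microRNA was 0.0229, and the median was 0.107 for the 239 microRNAs with at least 1000 counts. By this measure the median microRNA had a structured RNA at least as close in pattern as the median piRNA-annotated entry had.

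In 7 entries the closest structured RNA stood apart from the next by over 0.05 in SD. How many microRNAs had such a gap is not given, so this number has no background beside it. DQ585095 was closest to SNORD78, a box C/D snoRNA encoded in an intron of GAS5, with an SD of 0.0664 (0.0466 from counting alone) against 0.162 for the next, RNA5SP248. SNORD78 had 9363, 33928 and 34867 counts in control libraries and 23781, 15100 and 28467 in RUNX1 libraries, beside 477, 1673 and 1967 and 1255, 774 and 1513 for DQ585095. Ratios were 0.0509, 0.0493 and 0.0564 in control libraries and 0.0528, 0.0513 and 0.0531 in RUNX1 libraries, which overlapped. Both had a log2 fold change of -0.62, and RUNX1 replicate 3 was the highest RUNX1 library in CPM for both. DQ593190 was closest to RNA5SP440, named as a 5S rRNA pseudogene, with an SD of 0.189 (0.405 from counting alone) against 0.312 for RNA5SP246. RNA5SP440 had 27, 99 and 124 counts in control libraries and 16, 8 and 34 in RUNX1 libraries, beside 31, 121 and 134 and 16, 12 and 41 for DQ593190. The ratio of DQ593190 to RNA5SP440 was 1.15, 1.22 and 1.08 in control libraries and 1, 1.5 and 1.21 in RUNX1 libraries. RNA5SP440 had a log2 fold change of -2.50 (SE 0.446). Copies of 5S rRNA are near-identical, so the count of a single 5S entry is uncertain.

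The other 5 rested on few counts, and their SDs were below those from counting alone (0.303 to 0.815). DQ583196 and DQ574993 were both closest to SNORD86, with SDs of 0.183 and 0.442. SNORD86 had 2, 37 and 28 counts in control libraries and 20, 8 and 28 in RUNX1 libraries, beside 1, 19 and 14 and 9, 3 and 13 for DQ583196 and 1, 29 and 13 and 21, 4 and 14 for DQ574993. These entries were all low in control replicate 1 and RUNX1 replicate 2. DQ573293 was closest to SNORD11B (SD 0.129), at 0.0824 to 0.109 of its counts, and 30 entries lay within 0.2. DQ577347 was closest to SNORA2A, an H/ACA box snoRNA (SD 0.117, with 50 entries within 0.2), and DQ595833 to the 5S pseudogene RNA5SP283 (SD 0.412).

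Of the other abundant entries, DQ590704 was closest to SNORD18A (SD 0.0946), with SNORD99 next at 0.109 and 49 entries within 0.2. Its ratio to SNORD18A was 2, 2.09 and 2.03 in control libraries and 1.77, 1.81 and 1.97 in RUNX1 libraries, lower in all of the latter. DQ592181 was closest to SNORA14B (SD 0.0665), with the U5 snRNA RNU5A-1 next at 0.0768, and its ratio of 11.7 to 12.3 in control lay within the 11.6 to 13.2 of RUNX1 libraries. DQ600515 was closest to RNU5E-6P, a U5 snRNA pseudogene (SD 0.132), with SNORD53_SNORD92 next at 0.133 and 25 entries within 0.2. RNU5E-6P had a log2 fold change of -1.76 (SE 0.257). DQ594916 was closest to SCARNA9, a small RNA of Cajal bodies (SD 0.285, with SNORD68 next at 0.325), which had a log2 fold change of -2.27 (SE 0.172). A shared pattern of counts does not show that reads came from the same RNA, and with no sequences for the piRNA-annotated entries this was not tested.

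Entries with neighbouring DQ numbers did not always move alike. Of the 101, 22 (21.8%) lay within 5 numbers of another, in 8 runs. In the fit of all 101 entries on the TMM scale, DQ600514 had a log2 fold change of -0.08 (SE 0.313), beside -1.59 (SE 0.202) for DQ600515. DQ585093 and DQ585094 had 0.20 (SE 0.216) and 0.19 (SE 0.284), beside -0.58 (SE 0.223) for DQ585095. Differences between such neighbours were not tested.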

How the data were processed

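Small RNA of K562 cells was sequenced in 3 control and 3 RUNX1 samples from 1000 ng of total RNA (TruSeq Small RNA kit, HiSeq2000). The authors assigned the reads to annotated small RNAs with the OASIS platform, and the deposited values are raw counts per entry, without normalization. CASAVA 1.8.2 and hg19 are named in the processing notes, and the aligner and the handling of reads that match several entries are not given in the sources used here. Conditions and replicate numbers came from the sample titles. In the library names RUNX1 replicates 1 and 2 share a number, so these numbers are uncertain. Classes were read from the blocks of names in the files, and 5 summary rows, all at 0, were left out.

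Counts were analysed in R 4.3.3 with edgeR 4.0.16 (filterByExpr with minimum count 10 and minimum total count 15, TMM, glmQLFit and glmQLFTest with condition as the only term, Benjamini-Hochberg adjustment) and as an alternative with DESeq2 1.42.0. The biological coefficient of variation was 0.181, and TMM factors were 1.23 to 1.31 in control and 0.735 to 0.866 in RUNX1 samples. SE is the fitted log2 coefficient over the root of its F statistic. Fits were tested on simulated data. Shares and ratios were compared by exact two-sided permutation tests, and count ratios used an offset of 0.5. P-values of edgeR and DESeq2 set the difference between conditions against the spread between these samples. The exact permutation P is the share of relabelings of the samples with a difference in means at least as large. Tables and figures were made in Python 3.11.15 with pandas 2.3.3 and matplotlib 3.10.9.

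Named with all values were the 12 entries with the highest summed counts and all called entries, with the 3 most abundant untested ones, up to 2 at each side of the summed count of 10, and the closest structured RNAs. Sequences are printed for SNORD86 and SNORD11B only. DQ600514, DQ585094 and the other entries with neighbouring numbers or few counts were named after their values were seen. The members and lists were chosen with earlier results of these data known. Alternatives were other scalings, filters, thresholds, denominators and member rules, the replicate number as a block and each replicate left out.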

Additional observations from a re-analysis of the deposited data

How the results depend on the processing

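The number of the piRNA-annotated entries called altered (9 of 35 tested) was 19 by library size only (0 rising and 19 falling, against 67.7% of all small RNAs called). It was 5 when the adjusted P had to be below 0.05 and the log2 fold change 1 or more in size (0 rising and 5 falling, against 38.4% of all). Of these 5, all but DQ600515 leaned on control libraries in their selection, which favoured a fall. With all 101 entries tested, 23 were called without a count filter (15 rising and 8 falling). The 24.7% called among all 3084 small RNAs in that fit includes entries with fewer than 10 summed counts, so it is no like measure. With a summed count of at least 10, 20 of the 101 were called (12 rising and 8 falling, 19.8% against 45.9% of all). Combined with a summed count of at least 10, and chosen after seeing the data, TMM on structured RNAs gave 35 of 101 and library size only gave 30 of 101. DESeq2 called 9 of 35 (3 rising, 6 falling), and TMM on structured RNAs with the main filter 11 of 35 (7 rising, 4 falling). Leaving out each replicate gave 7 to 14 calls among 34 to 42 entries tested, with 14 of 34 without RUNX1 replicate 3. The share called over all small RNAs is not given for these fits or for the replicate block, so their counts have no background beside them. The numbers in the labels did not pair the samples: deviations from the group means of same-numbered samples correlated at -0.0327, -0.0904 and 0.0178. With the replicate block the fit also gave 9 calls, but the rising entry was DQ578832 (0.54) in place of DQ582175 (0.59, no longer called).

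The difference in class share (-0.111 points) was -0.0873 without the most abundant microRNA, -0.147 relative to microRNA counts and -0.0666 without DQ590704, and -0.127 to -0.102 when each replicate was left out. The log2 ratio to structured RNAs (-0.0964) was -0.297 with snoRNAs and 0.385 with rRNAs as denominator, and -0.215 to -0.0103 when each replicate was left out. DQ590704 held 37.2% of the counts on average over libraries, and 38% among entries with a summed count of at least 50. With an offset of 1, 28 of the 35 entries had the same closest structured RNA.

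Single entries turned in direction mostly with the scaling. By library size only, DQ601914 had a log2 fold change of -0.63, DQ585093 -0.53, DQ571425 -0.25, DQ578832 -0.20 and DQ582175 -0.09, with either filter. On the microRNA scale DQ601914 had -0.13 and DQ585093 -0.03. On the structured RNA scale DQ592181 had 0.07 and DQ593109 0.30, and with a summed count of at least 10, DQ590704 had 0.00, DQ592181 0.19 and DQ593109 0.41. DQ593109 changed sign with the setting, at -0.73 by library size only and -0.24 on the microRNA scale, and had 0.02 with DESeq2, 0.03 with RLE factors, 0.03 without a filter, and 0.02, 0.07 and 0.03 without control replicate 2, RUNX1 replicate 1 and RUNX1 replicate 2, within a range of -0.11 to 0.07 over the replicates left out. Over the 18 named entries, 221 of 303 values kept their direction and side of the threshold, 38 newly passed it, 21 no longer passed it and 23 turned. Causes of these shifts were not tested. Depth was lowest in control replicate 1, and 66 of the 101 entries were too low for the main filter.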
